A study of Mus musculus with 8 samples.

Results

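The genes described here encode the initiation and elongation factors of cytosolic translation and the few regulators named after them. They are the protein-coding rows of the count table whose Ensembl identifier maps to a GENCODE M21 symbol that begins with Eif followed by a digit from 1 to 6, or with Eef followed by 1 or 2. The kinase genes (Eif2ak and Eef2k) and the Y-linked Eif2s3y were left out by the same rule. In all, 60 of the 38293 gene identifiers in the table were members. Poly(A) RNA was sequenced from the left ventricle of untreated male C57BL/6 mice of 8 weeks of age. Of the 8 hearts 4 were wild-type (WT) and 4 carried a knockout (KO) of mORF4/Nbdy, and each heart gave 1 library. Libraries are numbered as in the labels, WT replicates 1 to 4 and KO replicates 5 to 8. The structure of the KO allele is not stated in the labels, and the left ventricle holds several cell types, so in these samples fewer cells of a type and less RNA per cell cannot be told apart. KO was compared with WT to see how mRNA levels in the heart differ with a knockout of Nbdy, whose small protein product interacts with mRNA decapping factors.

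Translation of most mRNAs begins when the eIF4F complex (the cap-binding protein eIF4E, the scaffold eIF4G and the helicase eIF4A) binds the 5′ cap and brings in the small ribosomal subunit through eIF3. That subunit carries eIF1, eIF1A and a complex of eIF2, GTP and initiator tRNA, scans to the start codon and is joined there by the large subunit with the help of eIF5 and eIF5B. eIF2 is then recharged with GTP by the exchange factor eIF2B. During elongation eEF1A delivers each aminoacyl-tRNA, the eEF1B subunits recharge eEF1A, and eEF2 moves the ribosome by one codon. In adult cardiomyocytes eEF1A2 is the muscle form that takes the place of much of the eEF1A1 made in other tissues. The mRNAs of many elongation factors begin with a run of pyrimidines at the cap (a TOP mRNA), through which mTORC1 controls their translation.

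The Eef1a genes are shown first because the ratio of their reads can be read only where the copies differ in sequence. The first 60 coding bases are given from the GENCODE M21 transcript with the longest coding part, with the bases that differ between the copies in capitals. Eef1a1 lies on the minus strand of chromosome 9 (78478449 to 78489151, GRCm38) and Eef1a2 on the minus strand of chromosome 2 (181147653 to 181157014).
Eef1a1: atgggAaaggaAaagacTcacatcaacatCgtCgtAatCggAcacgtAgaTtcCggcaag
Eef1a2: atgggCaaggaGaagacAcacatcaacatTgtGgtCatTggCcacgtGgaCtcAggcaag
Of these 60 bases 11 differed. Over the whole coding sequence 79.9% of aligned bases were identical, and the longest stretch that the 2 transcripts share was 23 bases. Reads of 50 bases from one copy therefore cannot match the other without a mismatch. Eef1a1 has another limit: 59.2% of the 50-base windows of its transcript also occur in 20 other annotated genes, whereas no window of Eef1a2 does. The handling of reads with several matches is not given in the sources used here, so the level of Eef1a1 is uncertain.

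Start-site windows are shown for 4 members reported to have TOP mRNAs. Each window holds the 30 bases before and the 30 bases from the RefSeq transcript start (GRCm38.p6), on the gene's own strand. The capitals mark the longest run of C and T, or the first of equal runs.
Eef1a1: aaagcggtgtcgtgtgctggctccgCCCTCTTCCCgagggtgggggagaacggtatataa
Eef1a2: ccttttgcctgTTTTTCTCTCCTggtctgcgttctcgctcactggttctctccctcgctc
Eef2: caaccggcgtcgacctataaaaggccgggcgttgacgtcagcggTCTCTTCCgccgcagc
Eif4b: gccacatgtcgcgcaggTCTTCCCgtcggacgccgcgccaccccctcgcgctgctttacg
The windows lie at 78481695 to 78481754 on chromosome 9 (Eef1a1), 181156986 to 181157045 on chromosome 2 (Eef1a2), 81176601 to 81176660 on chromosome 10 (Eef2) and 102073743 to 102073802 on chromosome 15 (Eif4b). A run of 8 or more pyrimidines was present in the first 3 and absent from the Eif4b window, where the longest run was 7. Of the 10 listed TOP members 6 had an entry in the RefSeq promoter table, and 4 of these held such a run. Not shown are the windows of Eif3f, with a run of 15, and of Eef1b2, whose longest run was 4. Of the 32851 promoter entries 22.9% held a run of 8 or more in the same 60-base window. Positions were counted from 1 at the RefSeq start and from -1 before it. The marked runs began at base -5 (Eef1a1), -19 (Eef1a2), 15 (Eef2) and -13 (Eif4b). The marked runs of Eef1a2 and Eif4b lay wholly before the RefSeq start, and that of Eef1a1 spanned it. After the start, the Eef1a2 window holds an unmarked shorter run of at least 8, and the Eif4b window an unmarked second run of 7. None of these runs began at the RefSeq start. Only the gene's own strand was searched, and the RefSeq start need not be the cap site of the mRNA in this tissue.

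Total counts ran from 11101901 to 14699949 per library. As a check of the labels, Nbdy held 208 to 248 counts in the WT libraries and 115 to 137 in the KO libraries (log2 fold change -0.97 ± 0.11, SE; adjusted p = 0.0060 by the quasi-likelihood test of edgeR). Without KO replicate 6 the adjusted p was 0.056. Nbdy mRNA thus remained in KO, at 9.58 to 10.4 CPM (counts brought to a common library size) beside 19.0 to 20.1 in WT. Its protein was not measured in the libraries described here. The summed level of 7 cardiomyocyte markers was 58604 to 69524 CPM in WT and 60791 to 72266 in KO, and 4 lymphocyte markers summed to 1.28 to 2.09 CPM in all libraries. Fibroblast markers (6 genes) summed to 1068 to 1357 CPM in WT and 870.03 to 1124 in KO, and 4 atrial markers to 264 to 481 CPM in WT and 457 to 713 in KO, and the part of these cells in the results was not tested. Mitochondrially encoded genes took 29.2% of counts in WT replicate 1, 19.4% to 19.9% in the other WT libraries and 23.0% to 26.7% in KO.

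No translation factor gene passed the test of KO against WT. Of the 60 members 56 had enough counts to be tested, and 0 of the 56 passed at an adjusted p of 0.05, against 3 of all 13336 genes tested (0.0225%). DESeq2 and limma-voom also called 0 members. At an unadjusted p under 0.05 there were 2 members, Eif3j1 and Eef2, or 3.57% of those tested, beside 6.4% of all genes. Log2 fold changes were positive for 26 members and negative for 30. Their median was -0.0072, beside -0.0032 over all genes tested. The adjusted p-values of the members lay between 0.711 and 0.994.

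The intervals of these fold changes were narrow. For 50 of the 56 tested members the 95% interval of the fold change lay within 1.5-fold in either direction, and for 55 within 2-fold. The 6 that reached past 1.5-fold were Eef1a2, Eef2, Eif2s3x, Eif3j1, Eif4ebp2 and Eif5a2, and Eif2s3x was the 1 that reached past 2-fold. The median SE was 0.12 for the members and 0.16 for all genes tested. The median coefficient of variation between WT libraries was 11.9% for the members and 16.8% for all genes, and between KO libraries it was 8.20% and 12.9%. As one pool of mRNA, the members took 0.709% ± 0.050 of all counts in the 4 WT libraries and 0.717% ± 0.035 in the 4 KO libraries (mean ± SD), a difference smaller than the spread between libraries.

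**Figure D1:**
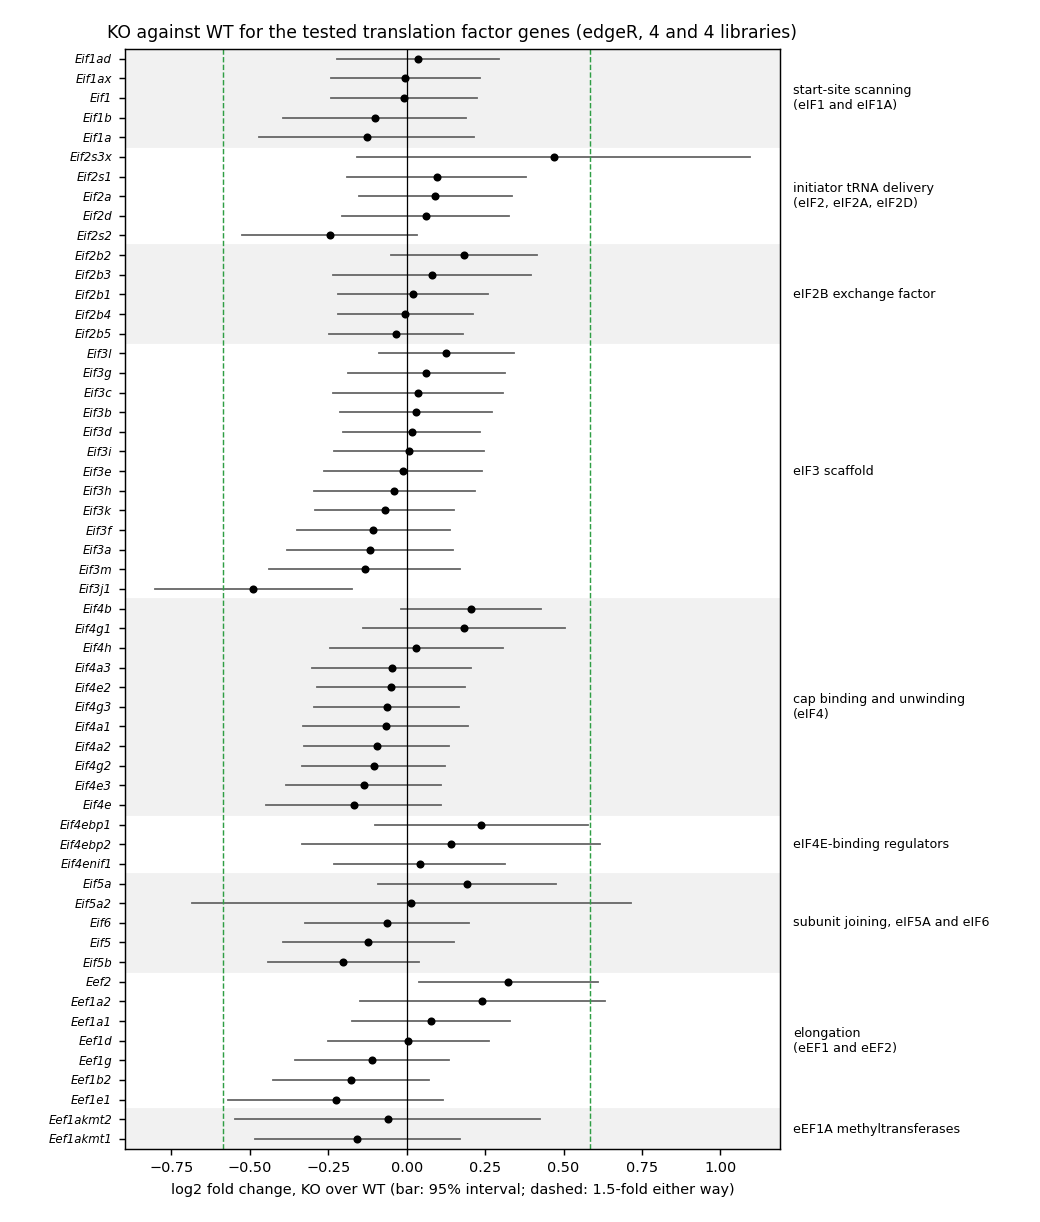
Log2 fold change of KO over WT (x axis) for the 56 tested translation factor genes (rows, grouped by role), with points for the edgeR estimate, bars for its 95% interval and dashed lines at 1.5-fold in either direction. The points lie between -0.49 for Eif3j1 and 0.47 for Eif2s3x, and the intervals of Eif3j1 and Eef2 leave out 0.

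Levels of the members were compared as CPM per kilobase of the longest basic protein-coding transcript. On that scale the elongation factor genes Eef1a2 and Eef2 came first, at 436 ± 116 and 279 ± 41.8 CPM per kilobase in WT (SD, n = 4). They were followed by Eif1 at 259.9 ± 19.96 and Eef1a1 at 240.0 ± 24.3, whose libraries overlap each other and those of Eef2. Eif5a at 141 ± 23.8 and Eif3k at 129 ± 10.1 came next, and also overlap. At the low end of the tested members, Eif5a2 had 0.316 ± 0.035, Eif2s3x 0.629 ± 0.179 and Eif4ebp2 1.205 ± 0.389 CPM per kilobase in WT. From the lowest to the highest tested member, means over the 8 libraries spanned 1489-fold. With the union of all annotated exons as length, Eef1a2 stayed at 436 and Eef2 stood at 259.7 CPM per kilobase, but Eef1a1 and Eif1 stood at 173 and 164, so the order of genes close to each other depends on the transcript assumed. Per kilobase of windows found in no other gene, chosen after seeing the data, Eef1a1 came first at 588 and Eif1 stood at 379.8 CPM, with Eef1a2 at 436 and Eef2 at 303, so the order of these 4 genes is uncertain.

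**Figure D2:**
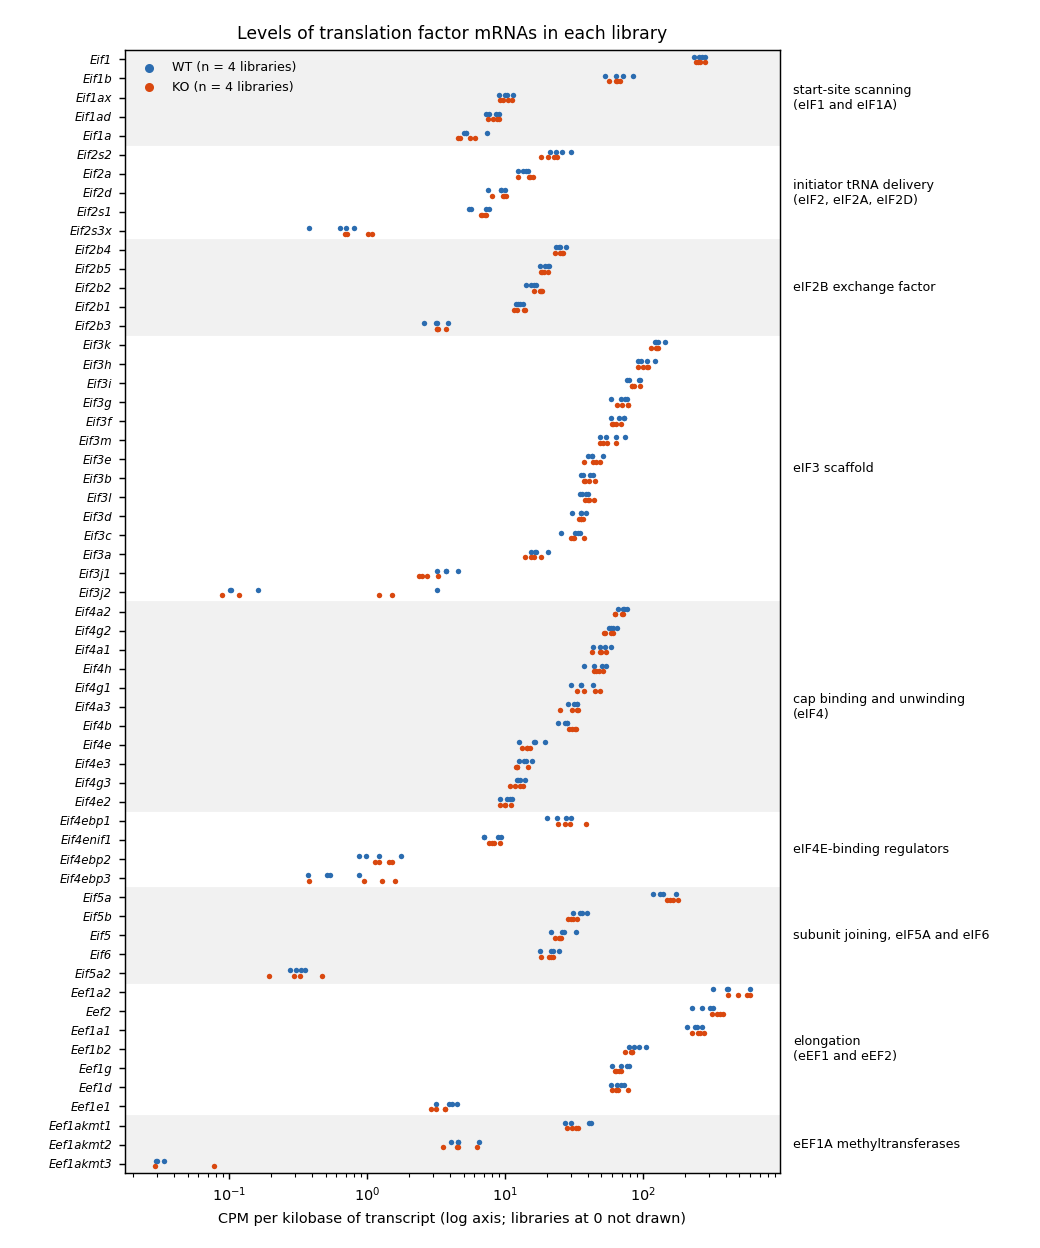
Level of each member in CPM per kilobase of transcript (x axis, log scale) in the 4 WT libraries (blue) and the 4 KO libraries (orange), by role. WT and KO points of most genes lie on top of each other, and Eif3j2 splits into libraries above 1 (WT replicate 2, KO replicates 7 and 8) and libraries below 0.2.

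In the group for start-site scanning, all 5 genes were tested and 0 passed. Eif1 encodes the factor that guards start codon selection, and was the most abundant initiation factor gene per length. Its near relative Eif1b stood at 68.2 ± 12.8 CPM per kilobase in WT and 63.5 ± 4.89 in KO. The X-linked Eif1ax stood at 10.2 ± 1.003 and 10.2 ± 0.885, and the autosomal Eif1a at 5.72 ± 1.12 and 5.23 ± 0.727. Eif1ad, placed in this group by its name, which refers to its eIF1A-like domain, was at 8.13 ± 0.811 and 8.34 ± 0.657. The median log2 fold change of the 5 genes was -0.01, and WT and KO libraries overlapped for each.

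The 5 genes for delivery of the initiator tRNA were tested, and 0 passed. Eif2s1 encodes the alpha subunit of eIF2, whose phosphorylation by the eIF2 kinases slows initiation. It stood at 19.4, 26.1, 18.7 and 24.8 CPM in WT replicates 1 to 4 and at 24.6, 22.7, 23.1 and 24.6 CPM in KO replicates 5 to 8. The WT libraries enclosed all KO libraries, and the log2 fold change was 0.10 ± 0.13 (SE, adjusted p = 0.915). Eif2s2, for the beta subunit, stood at 54.3, 76.5, 65.5 and 59.9 CPM in WT and at 46.1, 52.1, 57.4 and 60.6 CPM in KO. Here 2 KO libraries lay below every WT library and 2 did not, and the log2 fold change was -0.24 ± 0.13 (adjusted p = 0.783). Of the Eif2s2 transcript 27.8% of 50-base windows also occur in 1 other gene, so its level is uncertain. Without its GTP-binding gamma subunit eIF2 cannot hold the initiator tRNA. The mouse has an X-linked and a Y-linked copy of that subunit's gene, and in these male hearts the X-linked Eif2s3x held 32, 25, 17 and 38 counts in WT and 37, 56, 32 and 42 in KO, at 1.39 to 3.97 CPM. The Y-linked Eif2s3y, which the rule leaves out, held 731 to 1168 counts in every library. Eif2s3x had a log2 fold change of 0.47 ± 0.29 (95% interval -0.16 to 1.10, adjusted p = 0.797), the highest of any member, from the fewest counts but for Eif5a2 among those tested. Over its transcript, 36.2% of 50-base windows also occur in 2 other genes, so its level is uncertain. Eif2a and Eif2d, for factors that can bring initiator tRNA without eIF2, had 13.7 ± 0.911 and 9.06 ± 1.05 CPM per kilobase in WT and 14.6 ± 1.51 and 9.45 ± 0.931 in KO.

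Genes for eIF2B, the exchange factor that recharges eIF2, differed little between groups, and 0 of 5 passed. Eif2b5 encodes the catalytic epsilon subunit and stood at 49.9, 51.9, 45.4 and 52.8 CPM in WT and at 52.5, 47.0, 46.8 and 49.1 CPM in KO. Every KO library lay inside the WT range, and the 95% interval of the log2 fold change was -0.25 to 0.18. For Eif2b2, the beta subunit gene, the values were 22.9, 26.0, 24.7 and 26.9 CPM in WT and 28.9, 26.0, 29.9 and 29.3 CPM in KO. KO replicate 6 lay below WT replicates 2 and 4, the other KO libraries lay above all WT libraries, and the log2 fold change was 0.18 ± 0.11 (adjusted p = 0.796). Per kilobase the 5 subunit genes ran from 3.19 ± 0.518 (Eif2b3, gamma) to 25.1 ± 1.78 (Eif2b4, delta) in WT.

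The eIF3 scaffold bridges the small ribosomal subunit and eIF4G. It was the largest group, with 14 members and 13 tested, of which 0 passed and 6 had a positive and 7 a negative log2 fold change (median -0.01). Eif3a, for the largest subunit, stood at 84.5, 105.3, 78.6 and 85.9 CPM in WT and at 83.0, 78.8, 71.9 and 93.1 CPM in KO. WT replicate 2 was the highest and KO replicate 7 the lowest, and the log2 fold change was -0.12 ± 0.12 (adjusted p = 0.883). Per length the tested subunit genes ran from 3.81 ± 0.547 (Eif3j1) and 17.3 ± 2.27 (Eif3a) to 105 ± 13.6 (Eif3h) and 129 ± 10.1 (Eif3k) CPM per kilobase in WT. In KO the same 4 genes stood at 2.71 ± 0.402, 15.9 ± 1.73, 102 ± 7.53 and 123 ± 6.27, in the same order. The order of Eif3h and Eif3k depends on the length used. With the union of exons as length they stood at 84.2 and 43.5 in WT, and per kilobase of unshared windows at 142 and 129. Of the Eif3h windows 26.2% also occur in other genes, so its level is uncertain.

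Eif3j1 had the smallest p of all members. The gene encodes eIF3j, a loosely bound subunit that sits near the decoding centre, and lies on the plus strand of chromosome 2 (122028546 to 122056598, GRCm38). It stood at 20.2, 17.5, 20.1 and 24.7 CPM in WT and at 17.7, 14.8, 13.5 and 12.8 CPM in KO. WT replicate 2 lay just below KO replicate 5, and otherwise every KO library lay below every WT library. The log2 fold change was -0.49 ± 0.15 (SE; 95% interval -0.80 to -0.17), with an unadjusted p of 0.0053 and an adjusted p of 0.711 over all genes tested. Across the alternatives its log2 fold change stayed between -0.59 and -0.40, and its adjusted p lay between 0.314 and 0.952.

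A near-identical copy limits what Eif3j1 can show. Eif3j2, a second eIF3j gene on chromosome 18, shares 99.2% of its aligned coding bases with Eif3j1, and 91.9% of its 50-base windows also occur in other genes. It did not reach the count filter and was not tested. The WT libraries held 3, 83, 3 and 5 counts of it and the KO libraries 4, 3, 37 and 41, so that WT replicate 2 and KO replicates 7 and 8 stood apart from the other libraries, and the groups overlapped. With both copies summed, levels were 20.5, 25.2, 20.3 and 25.03 CPM in WT and 17.99, 14.97, 16.4 and 16.4 CPM in KO. All 4 KO libraries then lay below all 4 WT libraries, which 1.98% of all genes tested did. In a fit with the summed counts, chosen after seeing the data, the sum had a log2 fold change of -0.47 (adjusted p = 0.685). Exons of Eif3j1 also share 1107 bases with exons of Spg11 on the opposite strand, and whether reads were counted by strand is not given in the sources used here. Spg11 stood at 14.0 ± 5.30 CPM in the WT and 15.3 ± 1.46 CPM in the KO libraries (mean ± SD), and its part in the counts of Eif3j1 was not tested.

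**Figure D3:**
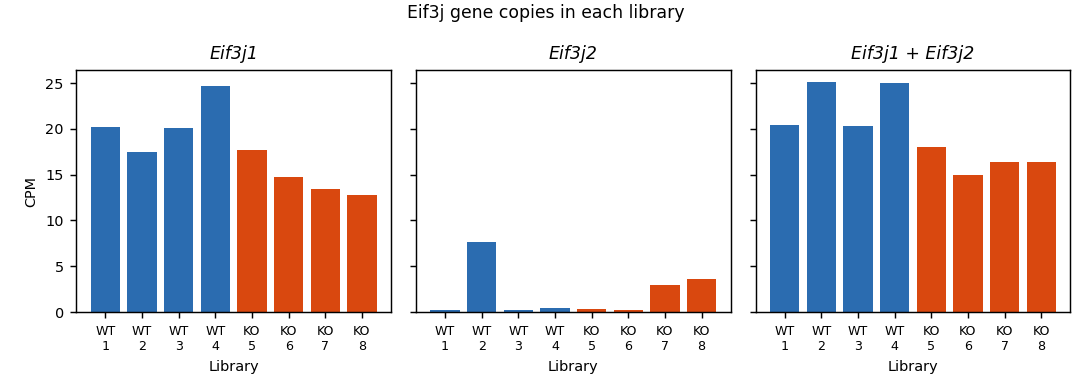
CPM (y axis, from 0) of Eif3j1, of its near-identical copy Eif3j2 and of their sum in each WT (blue) and KO (orange) library. Eif3j2 is above 2 CPM in WT replicate 2 and KO replicates 7 and 8, and the sum is at or above 20.3 CPM in WT and at or below 17.99 in KO.

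In the group for cap binding and unwinding, 11 of 12 genes were tested, 0 passed, and 3 log2 fold changes were positive and 8 negative (median -0.06). Eif4e, for the cap-binding protein itself, stood at 62.5, 96.9, 80.9 and 82.2 CPM in WT and at 65.9, 72.6, 72.4 and 75.8 CPM in KO. The KO libraries lay inside the WT range, which was wide because of WT replicates 1 and 2. Its log2 fold change was -0.17 ± 0.13 (adjusted p = 0.820). Eif4e1b, a cap-binding gene with oocyte expression, had 0 counts in all 8 libraries, and in the smallest library 3 counts, the limit that a count of 0 allows, would be 0.276 CPM.

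The helicase genes Eif4a1 and Eif4a2 unwind the 5′ end of the mRNA. Eif4a1 stood at 87.2, 104.1, 76.6 and 94.8 CPM in WT and at 88.3, 75.3, 86.7 and 96.1 CPM in KO, with a log2 fold change of -0.07 ± 0.12 (adjusted p = 0.939) that was 0.0059 without WT replicate 2. For Eif4a2 the levels were 193, 207, 199 and 177 CPM in WT and 192, 169, 170.3 and 194 CPM in KO, and the log2 fold change was -0.10 ± 0.11 (adjusted p = 0.888). Both genes overlapped between groups. Of the Eif4a1 transcript 65.3% of windows occur in 8 other genes, which makes its level uncertain, against 11.5% for Eif4a2.

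The scaffold gene Eif4g1 stood at 201, 199, 170.6 and 245 CPM in WT and at 276, 211, 186 and 252 CPM in KO. KO replicates 5 and 8 and WT replicate 4 were the high libraries, and the log2 fold change was 0.18 ± 0.15 (adjusted p = 0.833). It was 0.09 without KO replicate 5, 0.10 without WT replicate 3, 0.28 without WT replicate 4, 0.27 without KO replicate 7 and 0.07 with correction for GC content and length. Eif4g2 encodes DAP5, a relative of eIF4G that lacks the eIF4E-binding part. Its levels were 470.4, 517, 487 and 455 CPM in WT and 419, 466, 427 and 481 CPM in KO, with a log2 fold change of -0.11 ± 0.11 (adjusted p = 0.878). Per kilobase Eif4g2 stood at 60.4 ± 3.32 in WT, Eif4g1 at 36.2 ± 5.45 and Eif4g3 at 12.8 ± 0.790.

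Eif4b was the 1 tested member whose KO libraries all lay above every WT library, as 2.14% of all genes tested did. None of the tested members lay below every WT library. The gene encodes a cofactor of the eIF4A helicase and lies on the plus strand of chromosome 15 (102073773 to 102097173). It stood at 108.7, 109.2, 92.8 and 105.5 CPM in WT and at 126.7, 117.9, 111.2 and 124.3 CPM in KO. The gap between the highest WT and the lowest KO library was small beside the range within each group. Its log2 fold change was 0.21 ± 0.10 (95% interval -0.02 to 0.43), with an unadjusted p of 0.068 and an adjusted p of 0.777.

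Repressors of eIF4E were 4 members, of which 3 were tested and 0 passed. Eif4ebp1 encodes 4E-BP1, which holds eIF4E away from eIF4G until mTORC1 phosphorylates it. Its levels were 47.2, 59.5, 40.4 and 54.9 CPM in WT and 58.8, 54.0, 48.7 and 76.7 CPM in KO. KO replicate 8 was the highest, the groups overlapped, and the log2 fold change was 0.24 ± 0.16 (adjusted p = 0.801), or 0.09 without KO replicate 8. Eif4ebp2, a second 4E-BP gene, had 10.1, 7.005, 5.06 and 5.68 CPM in WT and 6.65, 7.03, 8.79 and 8.31 CPM in KO. WT replicate 1 was the highest of the 8. With all libraries the log2 fold change was 0.14 ± 0.22 (adjusted p = 0.926). It was 0.38 without WT replicate 1, but 0.0117 without WT replicate 3 and 0.0493 without WT replicate 4. Eif4ebp3 held 3 to 8 counts in WT and 4 to 17 in KO and was not tested. Of its windows 65.5% also occur in 1 other gene, whose exons share 501 bases with it on the same strand, so its level is uncertain. Eif4enif1 encodes 4E-T, a partner of eIF4E in P-bodies, the mRNA decay granules that Nbdy is known to affect. It stood at 34.5, 26.0, 32.9 and 26.3 CPM in WT and at 30.8, 28.3, 30.04 and 34.2 CPM in KO. All KO libraries lay within the WT range, and the log2 fold change of 0.04 ± 0.13 (95% interval -0.23 to 0.31) was near 0 and took a negative sign under 4 of the alternatives.

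The genes for subunit joining, eIF5A and eIF6 were 5, all tested, of which 0 passed. Eif5b encodes the GTPase that joins the ribosomal subunits. Its levels were 275, 307, 279.5 and 244 CPM in WT and 261, 223, 243 and 233 CPM in KO. KO replicates 6, 7 and 8 lay below all WT libraries and KO replicate 5 among them, with a log2 fold change of -0.20 ± 0.11 (adjusted p = 0.784). Exons of Eif5b share 1643 bases with exons of Rev1 on the opposite strand, so its level is uncertain. Eif5a encodes the hypusine-bearing factor that helps ribosomes past stalling sequences, and stood at 191, 199.7, 171 and 251 CPM in WT and at 257, 213, 224 and 236 CPM in KO. WT replicate 4 lay among the KO libraries, and the log2 fold change was 0.19 ± 0.13 (adjusted p = 0.811). Eif6 keeps free large subunits apart from small ones. Its levels were 27.1, 36.8, 32.3 and 33.4 CPM in WT and 32.1, 27.4, 33.4 and 31.1 CPM in KO, within 1 range, with a log2 fold change of -0.06 ± 0.12 (adjusted p = 0.946) that was 0.0038 without WT replicate 2 and 0.0078 with 1 surrogate variable in the model.

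Of the elongation factor genes all 7 were tested and 0 passed. Eef2, on the plus strand of chromosome 10 (81176631 to 81182498), had the second smallest p of the members. It stood at 938, 821, 702 and 991 CPM in WT and at 1169.95, 1063, 976 and 1114 CPM in KO. KO replicate 7 lay between WT replicates 1 and 4, and the other KO libraries lay above every WT library. The log2 fold change was 0.32 ± 0.13 (95% interval 0.04 to 0.61), with an unadjusted p of 0.029 and an adjusted p of 0.735. WT replicate 3 was the lowest library, and without it the log2 fold change was 0.23. A fit corrected for GC content and length also gave 0.23.

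Eef1a2, the muscle form of eEF1A, had 849, 867, 673 and 1247 CPM in WT and 1176, 1019, 865 and 1236 CPM in KO. The highest library was WT replicate 4 and the lowest WT replicate 3, so that the WT range enclosed the KO range, and the log2 fold change of 0.24 ± 0.18 had an adjusted p of 0.818. Without WT replicate 4 it was 0.43 and without WT replicate 3 it was 0.12. Eef1a1 stood at 439.6, 480.1, 374 and 428 CPM in WT and at 409, 452, 494 and 461 CPM in KO. These ranges overlapped too, and the log2 fold change was 0.08 ± 0.12 (adjusted p = 0.925). Eef1b2, for an exchange subunit of eEF1A, stood at 153, 204, 167 and 180.3 CPM in WT and at 158, 143, 162 and 161 CPM in KO. Its log2 fold change was -0.18 ± 0.11 (adjusted p = 0.801). Of the other eEF1B genes, Eef1d and Eef1g had 66.2 ± 6.04 and 71.1 ± 8.68 CPM per kilobase in WT and 66.5 ± 7.70 and 65.8 ± 3.10 in KO, and 64.3% of the windows of Eef1g occur in 5 other genes. Eef1e1, which encodes a small eEF1-related subunit of the multi-synthetase complex, stood far lower, at 3.93 ± 0.556 and 3.36 ± 0.379.

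Elongation factor genes took 35.3% to 42.4% of the members' counts in the WT libraries and 41.0% to 43.2% in the KO libraries. Eef1a1, Eef1a2 and Eef2 alone took 33.0%, 29.3%, 27.8% and 35.3% in WT and 36.4%, 35.9%, 34.1% and 36.3% in KO. WT replicate 4 lay among the KO libraries and the other WT libraries lay below them, and the share was not tested. Among the eEF1A methyltransferase genes, which modify lysines of eEF1A, Eef1akmt1 had 35.003 ± 7.60 CPM per kilobase in WT and 31.4 ± 2.61 in KO. Eef1akmt2 had 4.93 ± 1.07 and 4.71 ± 1.12. Eef1akmt3 held 0 to 3 counts per library and was not tested.

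The 33 tested members outside the rule for named genes ran from -0.23 (Eef1e1) to 0.13 (Eif3l) on the log2 scale, with adjusted p-values from 0.812 to 0.994.

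Paralogs that can stand in for each other were compared by the log2 ratio of their counts within a library, which needs no scaling between libraries. Of 6 pairs, 0 passed in exact two-sided permutation tests of KO against WT over the 70 assignments of the libraries, whose smallest p is 0.0286. The adjusted p was 0.829 for each pair. After adjustment over the 6 pairs, a pair that alone separated KO from WT completely would still have missed the threshold. The adjusted p therefore cannot decide whether any single pair differed. Eef1a2 counts were 1.93, 1.81, 1.80 and 2.91 times those of Eef1a1 in WT and 2.87, 2.26, 1.75 and 2.68 times in KO. The muscle form thus had the more counts in every library, and per transcript length its ratio to Eef1a1 was 1.51 to 2.51. These ratios rest on how reads that match several places were counted. With the windows that occur in other genes left out of the length, an alternative chosen after seeing the data, the ratio per length was 0.615 to 1.02, so the data do not show which of the 2 mRNAs was the more abundant. WT replicate 4 stood apart from the other WT libraries and beside KO replicate 5. On the log2 scale the ratio averaged 1.05 ± 0.33 over the 4 WT and 1.23 ± 0.32 over the 4 KO libraries (mean ± SD), with an exact permutation p of 0.486. Eif4a2 counts were 1.87 to 2.59 times those of Eif4a1 in WT and 1.96 to 2.24 times in KO, and per transcript length 1.22 to 1.70 times over all libraries, but 0.479 to 0.665 times with the shared windows left out of the length. With all 8 libraries the Eif4g2 to Eif4g1 ratio had the largest difference of the 6 pairs, 2.34, 2.60, 2.86 and 1.86 in WT and 1.52, 2.20, 2.30 and 1.91 in KO. The KO minus WT mean log2 ratio was -0.28 (-0.40 without WT replicate 4 and -0.16 without KO replicate 5), and the exact permutation p of 0.200 was the lowest of the pairs. Eif4ebp2 counts were 0.104 to 0.215 of those of Eif4ebp1, Eif5a2 counts 0.0040 to 0.0107 of those of Eif5a, and Eif4e2 counts 0.331 to 0.628 of those of Eif4e over the 8 libraries.

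**Figure D4:**
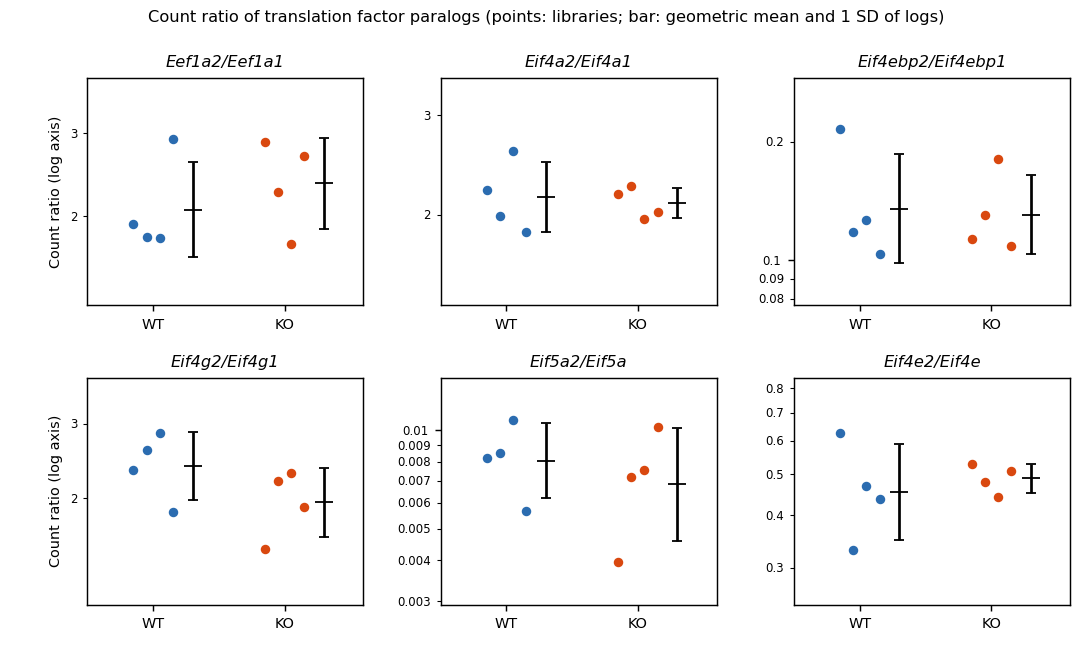
Ratio of counts of 6 paralog pairs (y axis, log scale, a separate scale in each panel) in each WT (blue) and KO (orange) library, with the geometric mean and 1 SD of the log ratios in black. The groups overlap in every panel, and for Eef1a2 over Eef1a1 the WT library at 2.91 stands apart from the other 3 near 1.8 to 1.9.

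Many members were high or low in the same libraries. WT replicate 2 was the highest library for 26 of the 56 tested members (46.4%), beside 19.8% of all genes tested. WT replicate 3 was the lowest for 20 members (35.7%), beside 13.5% of all genes. In WT replicate 2 and in KO replicate 8, 43 members each lay above their own mean over the 8 libraries. The low libraries were KO replicate 7 with 16, WT replicate 3 with 17, KO replicate 6 with 18 and WT replicate 1 with 19. The share of all genes above their mean was between 50.3% and 52.7% in every library. The scaling between libraries holds that share steady, so it does not show how far other sets of genes move together. The eIF3 genes showed the pattern of high and low libraries most evenly. All 13 tested lay above their own mean in WT replicate 2, 12 in KO replicate 8 and 10 in WT replicate 4, but 2 each in WT replicate 3, KO replicate 6 and KO replicate 7. Of the 7 elongation factor genes 5 lay above their own mean in WT replicate 2, 6 in WT replicate 4 and 5 in KO replicate 8, but 1 in WT replicate 3. Eef1a2 and Eef2 were the 2 below their mean in WT replicate 2, and both were lowest in WT replicate 3. The summed level of 8 immediate-early genes ran from 270 CPM in WT replicate 1 to 799 in WT replicate 3, with 682 in WT replicate 2, and from 220.4 to 1029 CPM in KO, with 383 in KO replicate 8. Its part in the pattern of the members was not tested.

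**Figure D5:**
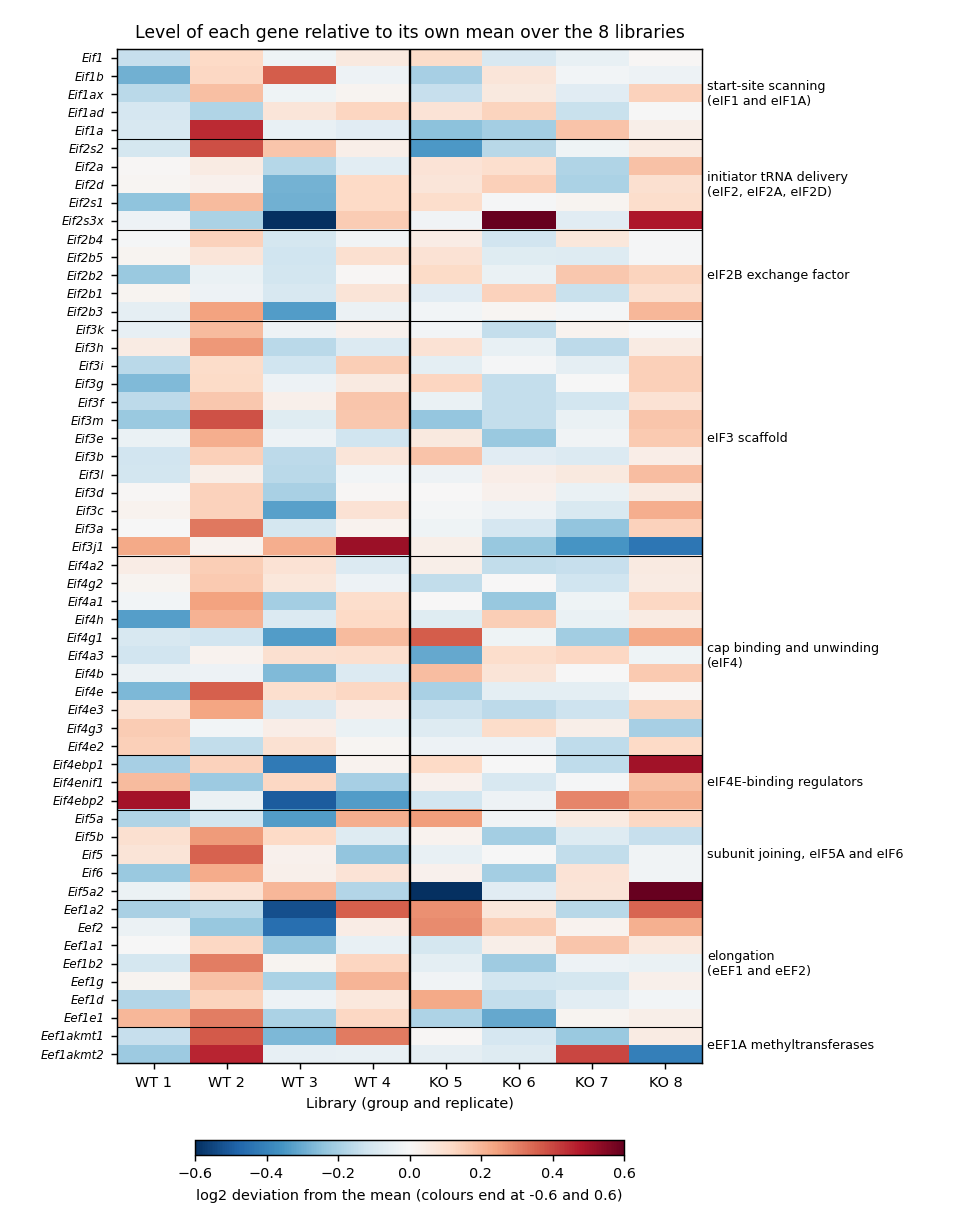
Log2 deviation of each of the 56 tested members (rows, by role) from its own mean over the 8 libraries (columns), with red above and blue below the mean. WT replicate 2 is red for most rows and WT replicate 3 blue for many, while no band of colour separates the 4 WT from the 4 KO columns.

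Other genes of translational control passed in no list, and an unadjusted p under 0.05 was reached by 2 eIF2 kinase and phosphatase genes, 1 mTORC1 gene, 2 termination genes, 1 mitochondrial factor gene and 0 genes of the other lists, beside 6.4% of all genes tested. Of the eIF2 kinases and phosphatase subunits 11 genes were tested, with 4 positive and 7 negative log2 fold changes (median -0.003). Gcn1l1, for the activator of the kinase Gcn2, stood at 46.6, 24.4, 28.9 and 52.1 CPM in WT and at 76.8, 78.2, 76.9 and 74.4 CPM in KO. All KO libraries lay above all WT libraries, as for 2.14% of all genes tested, and the log2 fold change was 1.01 ± 0.20 (adjusted p = 0.408 in edgeR). DESeq2 gave an adjusted p of 0.00126 and edgeR without a count filter 0.0096, and over all alternatives it lay between 0.00126 and 0.847. Ppp1r15b, for the constitutive subunit that directs phosphatase to eIF2, had a log2 fold change of -0.25 ± 0.12 (adjusted p = 0.777), and all KO libraries lay below all WT libraries, as for 1.98% of all genes tested.

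In the list of mTORC1 and its translation arm 14 of 18 log2 fold changes were positive, beside 6594 of all 13336 genes tested. The median of the list was 0.13, beside -0.003 for all genes, and the list was not tested as a set. The 2 with the smallest p were Eef2k, the kinase that inhibits eEF2, and Akt1s1, an inhibitory subunit of mTORC1. Eef2k stood at 30.9, 27.4, 29.2 and 33.2 CPM in WT and at 33.5, 35.1, 35.7 and 42.6 CPM in KO, without overlap (2.14% of all genes tested lay so), at a log2 fold change of 0.28 ± 0.11 (adjusted p = 0.736). Akt1s1 had 0.28 ± 0.15 (adjusted p = 0.783), and KO replicate 5 alone was at 74.0 CPM beside 47.0 to 52.6 in the other KO libraries. Without KO replicate 5 its log2 fold change was 0.12.

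Among termination, recycling and rescue factors 19 genes were tested, 8 with positive and 11 with negative log2 fold changes (median -0.03). Etf1, the release factor that reads stop codons, had -0.26 ± 0.11, and Abce1, which splits ribosomes, -0.22 ± 0.10 (adjusted p = 0.772 for both). All KO libraries of Abce1 lay below all WT libraries. Of the mitochondrial translation factors 9 of 11 were negative, beside 6742 of all 13336 genes tested. Their median was -0.13, beside -0.003 for all genes, and the list was not tested as a set. Guf1, the mitochondrial homologue of the bacterial elongation factor LepA, had -0.22 ± 0.10 (adjusted p = 0.772) and Mtrf1, a mitochondrial release factor family member, -0.32 ± 0.15 (adjusted p = 0.777), and in both all KO libraries lay below all WT libraries, as for 1.98% of all genes tested. Of 9 poly(A)-binding and Paip genes 4 were positive and 5 negative (median -0.04), with Paip2, an inhibitor of poly(A)-binding protein, at -0.24 ± 0.12 and Larp4, a poly(A)-binding protein partner, at -0.18 ± 0.12. Of 6 helicase genes outside eIF4A 2 were positive and 4 negative (median -0.07), with Ddx6, a P-body helicase, at -0.24 ± 0.11 and Ddx3x at -0.16 ± 0.12. Of 9 genes for enzymes that make diphthamide on eEF2 and hypusine on eIF5A 6 were positive and 3 negative (median 0.03), with Dnajc24, a diphthamide co-chaperone, at -0.36 ± 0.20 and the hypusine enzyme gene Dohh at 0.21 ± 0.17. Dohh stood at 65.02 CPM in KO replicate 5 and at 36.5 to 42.3 CPM in the other KO libraries, and without KO replicate 5 its log2 fold change was 0.0014. The adjusted p-values of these 6 genes lay between 0.777 and 0.833.

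The 10 members reported to have TOP mRNAs had 5 positive and 5 negative log2 fold changes and a median of -0.004. Eef2 at 0.32 and Eif4b at 0.21 were the 2 with the smallest p in that list, and Eef1b2 at -0.18 was its lowest. These are levels of mRNA, and translation of these mRNAs was not measured in the libraries described here.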

How the data were processed

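The deposited file is a single table in which the authors give raw counts per Ensembl gene as whole numbers, without normalization and with 1 column per heart. Reads came from stranded poly(A) libraries, per the labels' protocols, and were aligned by STAR (version 2.7.1a, build GRCm38 or mm10), per the submitters' processing notes. How reads were counted, by strand or not, and what was done with multiple matches is not given in the sources used. Opposite-strand genes overlap exons of 13 members, and 13 members share over 20% of their 50-base windows with other genes.

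Symbols, positions, lengths and coding sequences came from GENCODE M21 (36429 of 38293 identifiers matched) and promoter windows from RefSeq (44 of 60 members matched). After filterByExpr (minimum count 10) and TMM scaling, KO was tested against WT in edgeR 4.0.16 under R 4.3.3 (two-sided quasi-likelihood F test, genotype as the only term), with Benjamini-Hochberg adjustment over all 13336 genes tested and a threshold of 0.05. SE values derive from the fold change and the F statistic, and intervals are 95%. The script was tested on simulated data. Paralog ratios used a pseudocount of 0.5, and coding sequences were aligned in Biopython 1.88. No 2 libraries agreed within sampling noise (lowest chi-square per degree of freedom 11.4). By this measure WT replicate 1 lay farther from the other WT libraries (44.14 to 59.43) than from the KO libraries (13.45 to 26.61). The KO libraries lay at 11.43 to 20.09 from each other. The cause was not tested.

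The members and lists were chosen with earlier results of these data known. Named members were any that passed, the 8 with the smallest p and 16 anchors of the pathway (23 in all), and from each list the 2 genes with the smallest p. Alternatives were other scalings (DESeq2 size factors, library totals), other tests (DESeq2 1.42.0, limma-voom in limma 3.58.1), other filters (none, 1 CPM in 4 libraries), leaving out mitochondrially encoded genes, 1 surrogate variable (sva 3.50.0), correction for GC content and length (splines with 4 degrees of freedom), an adjusted p of 0.10, pseudocounts of 0 and 5, and each library left out in turn.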

Additional observations from a re-analysis of the deposited data

Results flagged for a closer look

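In 2 of 62 groups of 4 libraries examined, 1 library stood far from the other 3, where chance flags about 1 group in 20. Eif3j2 stood at 7.65 CPM in WT replicate 2, and the next highest WT library was at 0.384 CPM. The ratio of Eef1a2 to Eef1a1 counts was 2.91 in WT replicate 4, and the next highest WT library was at 1.93.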

How the results depend on the processing

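The members called stayed at 0 under all alternatives, also at an adjusted p of 0.10, and the lowest adjusted p of any member was 0.314 (Eif3j1 without WT replicate 1). The count of members at an unadjusted p under 0.05 was 4 with library totals, 1 with correction for GC content and length and 1 to 5 with a library left out, against 2. The count over all genes moved too. Of 13336 genes it was 891 with library totals and 668 with that correction, against 853. With a library left out it was 659 to 1452, of 13506 to 13573 genes. The 5 members came without WT replicate 4, where 1028 of 13517 genes did so. The median log2 fold change of the members lay between -0.0552 and 0.0326. Of 38 fold changes followed, 23 moved by over 1.5 times with some library left out, and 3 changed direction, each near 0: Eif4a1 (-0.14 to 0.0059 with a library left out), Eif4enif1 (-0.0093 with library totals, -0.0212 to 0.12 with a library left out) and Eif6 (0.0078 with 1 surrogate variable, -0.14 to 0.0038 with a library left out). The cause was not tested. Gcn1l1 passed with DESeq2 and without a filter, and Nbdy missed the threshold without KO replicate 6.

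With a library left out, the KO minus WT log2 ratio ran from -0.20 to 0.17 for Eif4ebp2 to Eif4ebp1, from -0.0468 to 0.26 for Eif4e2 to Eif4e, from -0.10 to 0.0565 for Eif4a2 to Eif4a1, from -0.43 to 0.0222 for Eif5a2 to Eif5a, from 0.09 to 0.35 for Eef1a2 to Eef1a1 and from -0.40 to -0.16 for Eif4g2 to Eif4g1. Without WT replicate 4 or KO replicate 8, Eif5a2 to Eif5a had the largest difference of the 6 pairs. With shared windows left out of the length, the mean log2 ratio per length went from 0.92 to -0.37 for Eef1a2 to Eef1a1 and from 0.48 to -0.8752 for Eif4a2 to Eif4a1. Of counts that are not mitochondrially encoded, the members took 0.911% in WT and 0.948% in KO. No paired analysis was possible because the groups share no replicate number. Low counts limit Eif2s3x and Eif5a2, and the 4 untested members allow no statement on a difference.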

Other observations

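Among the 62 genes tested whose log2 level had an SD of at least 1 over the 8 libraries, the 4 whose pattern was most like that of Eif3j2 were Zbtb16, Fkbp5, Ccn2 and Otud1, with Pearson's r from 0.859 to 0.934 over 8 libraries. They were chosen after their values were seen, and all points share the library's depth. Zbtb16, a zinc finger transcription factor gene, held 75, 649, 61 and 52 counts in WT and 43, 121, 478 and 916 in KO, so that its high libraries, as for Eif3j2, were WT replicate 2 and KO replicates 7 and 8. Fkbp5, a co-chaperone gene, held 130, 1013, 341 and 159 counts in WT and 237, 330, 451 and 668 in KO. The pseudogene Gm3650 held 0, 3, 0 and 0 counts in WT and 0, 0, 7 and 5 in KO.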
